A study of Mus musculus with 10 samples.

Results

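The BCL2 family decides at the outer membrane of mitochondria whether a cell lives or dies. This account follows 10 of its genes, taken from the 22165 identifiers of a mouse macrophage count table by their symbols: the pro-survival Bcl2, Bcl2l1 and Mcl1, the effectors Bax and Bak1, and the BH3-only genes Bcl2l11, Bbc3, Pmaip1, Bid and Bad. All 10 passed the filter on low counts and were among the 11614 genes tested. The rule goes by function and uses no measured value, but the members were chosen with earlier results of these data known.

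Pro-survival proteins hold the effectors BAX and BAK in check, and BH3-only proteins release that hold by binding the pro-survival proteins through a short helix, the BH3 motif. Freed effectors open the outer membrane, cytochrome c leaves, and the apoptosome forms with APAF1 and activates the caspases. MCL1 is a short-lived protein on which many myeloid cells depend, NOXA (from Pmaip1) binds mainly MCL1, and BIM (from Bcl2l11) and PUMA (from Bbc3) bind all the main pro-survival proteins.

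The cells were macrophages of the peritoneal cavity of C57BL/6 mice, sorted on CD64, ICAM-2 and CD115. KO mice carried LysM-Cre and a floxed allele, and WT mice carried the same floxed allele without Cre, so that both genotypes had it and each comparison of genotypes is also one of mice with and without Cre. LysM-Cre is expressed from the lysozyme locus of myeloid cells. Mice had been injected into the peritoneum with IL-4 bound to an antibody against it, or with saline (basal), and the cavity was washed with 5 ml of PBS after 36 hours. There were 3 KO IL-4, 3 WT IL-4, 2 KO basal and 2 WT basal libraries of polyadenylated RNA. The labels do not say whether the libraries of a group came from separate animals, and p-values then measure only the spread between these samples, which may be technical. Ages are not given in the labels used here.

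Libraries held 8762403 to 15024073 counted reads. All 16 markers of large peritoneal macrophages were detected, with a summed level of 15318 to 25369 CPM (read counts relative to library size, after TMM scaling). Single markers moved with IL-4. Averaged over genotypes, 4 of 16 were called lower after IL-4 and 0 higher (5.82% and 7.03% of all genes). They include Fcgr1, the gene of the sort marker CD64 (log2 -1.53), and Icam2 (log2 -0.98). Between basal genotypes 1 was called lower in KO, F10 (log2 -1.84). Markers of other cells moved with the groups as well. Summed B cell markers lay at 1824 and 2090.2 CPM in KO basal libraries against 270 and 446 CPM in WT basal libraries, and at 703 to 775 CPM in KO IL-4 against 639 to 736 CPM in WT IL-4 libraries. Markers of small macrophages, monocytes and dendritic cells summed to 7737 to 10140.1 CPM in KO IL-4, 5621 to 6915 CPM in WT IL-4, 2045 to 2579 CPM in KO basal and 806 to 1289 CPM in WT basal libraries. This sum includes Retnla, itself called higher after IL-4 in both genotypes and in KO over WT after IL-4 (log2 0.94). Of the 14 markers tested, only 4 were higher in KO than in WT after IL-4 (median log2 -0.21), unlike the sum. For IL-4 in KO 7 of 14 were higher (median 0.32), with 3 called higher and 1 lower (4.09% and 3.51% of all genes). For IL-4 in WT it was 13 of 14 (median 1.67), with 8 called higher and 0 lower (3.26% and 2.8%). Between basal genotypes 12 of 14 were higher in KO (median 0.81), with 6 called higher and 0 lower (2.61% and 1.53%). Fewer cells of a type and less RNA per cell cannot be told apart in such bulk samples.

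The members share the BH3 motif, which lies in the coding sequence of both the killers and the proteins they bind. The stretches below are 48 coding bases each, 5′ to 3′ on the coding strand, from GENCODE M21 transcripts (mm10), with the 6 codons of the core of the motif in capitals: a leucine codon first and an aspartate codon last. They are shown because this core is the feature by which the family is recognised.
Bcl2: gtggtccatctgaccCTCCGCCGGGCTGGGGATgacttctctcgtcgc
Bcl2l1: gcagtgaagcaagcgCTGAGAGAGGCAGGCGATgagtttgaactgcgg
Mcl1: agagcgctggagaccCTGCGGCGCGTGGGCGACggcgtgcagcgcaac
Bax: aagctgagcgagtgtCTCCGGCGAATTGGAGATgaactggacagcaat
Bak1: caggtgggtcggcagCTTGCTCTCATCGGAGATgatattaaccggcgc
Bcl2l11: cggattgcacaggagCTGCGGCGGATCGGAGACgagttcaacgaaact
Bbc3: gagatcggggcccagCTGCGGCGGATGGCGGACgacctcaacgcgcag
Bid: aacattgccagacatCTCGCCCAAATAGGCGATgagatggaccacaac
Bad: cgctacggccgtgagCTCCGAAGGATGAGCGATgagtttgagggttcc

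They lie at chr1:106712569-106712616 (minus strand, exon 1) for Bcl2, chr2:152829691-152829738 (minus, exon 2) for Bcl2l1, chr3:95659421-95659468 (plus, exon 1) for Mcl1, chr7:45465991-45466038 (minus, exon 3) for Bax and chr17:27022525-27022572 (minus, exon 4) for Bak1. The BH3-only stretches lie at chr2:128147135-128147182 (plus, exon 3) for Bcl2l11, chr7:16313758-16313805 (plus, exon 3) for Bbc3, chr6:120897283-120897330 (minus, exon 4) for Bid and chr19:6950777-6950824 (plus, exon 3) for Bad. Each core was found once in the longest of the coding sequences of its gene that hold such a core. At the level of bases the cores were far from identical: of the 18 bases, Bbc3 matched Bcl2l11 at 15, Bax and Mcl1 at 14, Bcl2, Bak1 and Bad at 11, and Bid and Bcl2l1 at 9. The least alike pair was Bcl2l1 and Bak1, with 7 of 18. Annotated isoforms differ in whether they hold the core. It is in 4 of 5 coding transcripts of Bcl2l11, 1 of 3 of Bbc3, 2 of 3 of Bid, 3 of 5 of Bax, 3 of 4 of Bak1, 6 of 8 of Bad and 7 of 8 of Bcl2l1, and counts per gene do not separate them.

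Per kilobase of exon, Mcl1 was by far the most abundant member in every library. Its mean over the 10 libraries was 238 CPM per kb (range 152 to 407), and the next, Bad, a BH3-only protein that survival kinases keep in the cytosol, averaged 19.2 CPM per kb (11.6 to 28.1). These ranges did not overlap. Bcl2l11 followed at 10.7 CPM per kb (7.27 to 13.4), below Bad and above Bbc3 in 10 of 10 libraries, although both ranges overlapped with its own. Bbc3 (6.40), Bak1 (6.03), Bax (5.39), Bcl2 (4.56), Bid (3.81), Pmaip1 (2.65) and Bcl2l1 (1.67) came next in CPM per kb. Among these 7 genes, each neighbour in the order was higher than the next in only 5 to 8 of 10 libraries. With the longest transcript as the length in place of all exons, Mcl1, Bad and Bcl2l11 kept the top of the order, Bax moved above Bbc3 and Bak1, and Bcl2l1 above Pmaip1.

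**Figure D1:**
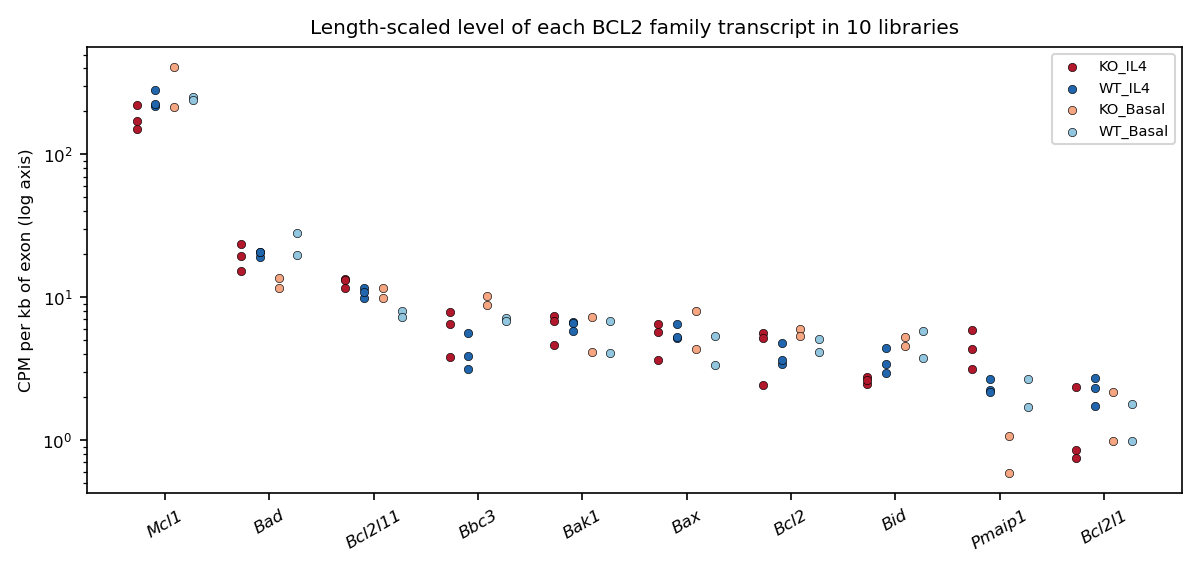
Level of each member in each of the 10 libraries, in CPM per kb of exon on a log axis, with members ordered by their mean and groups by colour. Mcl1 at 152 to 407 CPM per kb lies above every other member in each library, and Pmaip1 spreads from 0.59 to 5.86 CPM per kb.

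Mcl1 thus held most of the length-scaled transcript of these 10 members, with other genes of the family left out of the sum. Its share of the sum over the 10 genes was 73.1%, 69.9% and 79.2% in KO IL-4, 82.3%, 78.8% and 79.4% in WT IL-4, 88.2% and 77.8% in KO basal, and 80.1% and 79.8% in WT basal libraries. The 5 BH3-only genes together summed to 38.4 to 51.7 CPM per kb and both effectors to 7.46 to 15.4 CPM per kb. The ratio of Bax to Bak1 per kb ranged from 0.529 to 1.25, so neither effector was the higher one throughout.

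The main comparisons asked how IL-4 and the deletion of the floxed gene in myeloid cells change gene levels, and whether the response to IL-4 differs between genotypes. Of the 10 members, Pmaip1 passed the test for IL-4 in KO macrophages, for the IL-4 effect averaged over genotypes and for the interaction (the IL-4 effect in KO minus that in WT), in each case higher. Bid passed as lower for the averaged IL-4 effect. No member passed between genotypes, after IL-4 or under basal conditions, or for IL-4 in WT. Values after log2 are fold changes with their standard errors, and every adjusted p is from edgeR's quasi-likelihood test with Benjamini-Hochberg adjustment over all 11614 genes.

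**Figure D2:**
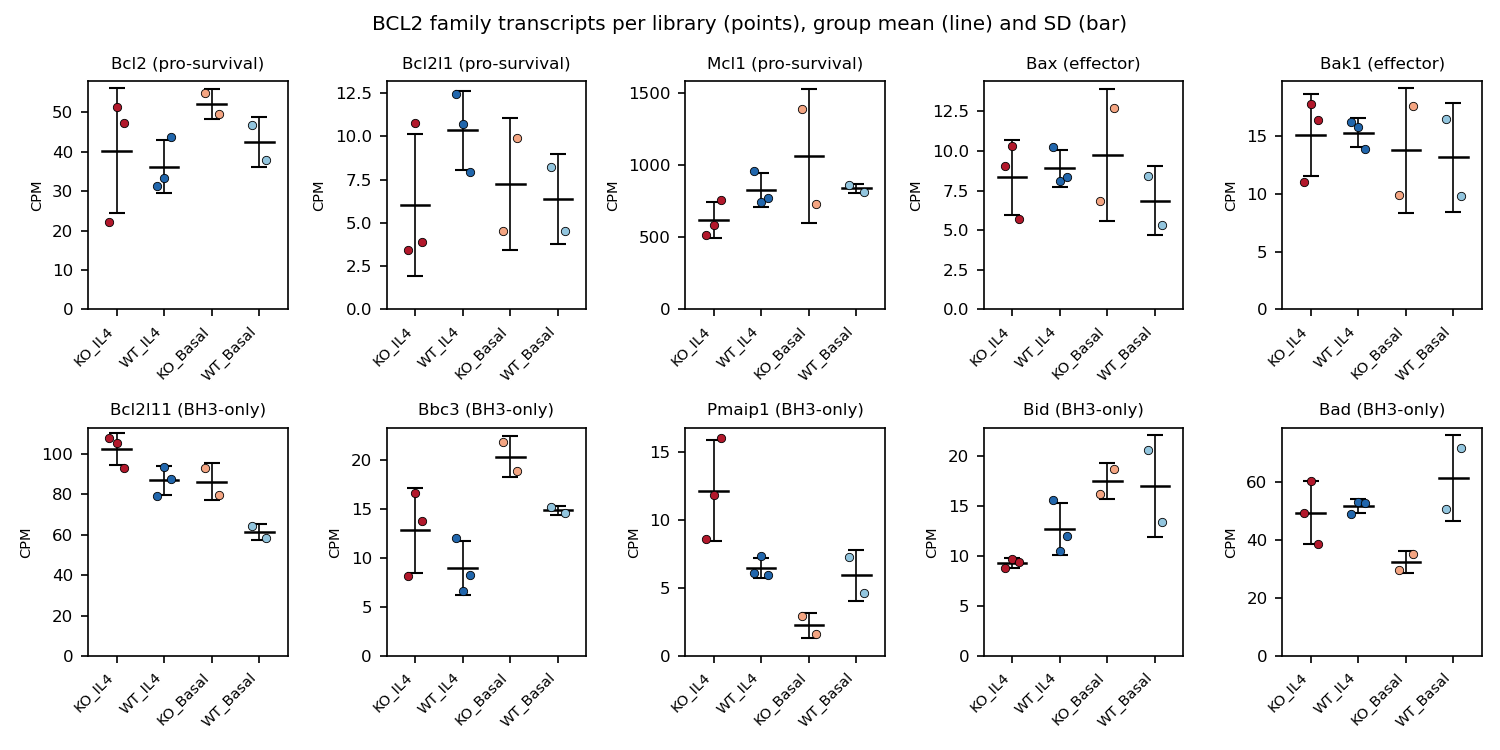
CPM of each member per library (points) with the group mean (line) and SD (bar), for 3 KO IL-4, 3 WT IL-4, 2 KO basal and 2 WT basal libraries, each panel on its own linear axis from 0. Pmaip1 lies at 8.63 to 16.0 CPM in KO IL-4 libraries and at 1.61 to 2.92 CPM in KO basal libraries, while Mcl1 parts the 2 KO basal libraries at 1393 and 734 CPM.

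Pmaip1 (ENSMUSG00000024521, chr18:66458533-66465565, plus strand) had the widest range of group means among the members, 2.35 on the log2 scale. It had 8.63, 11.8 and 16.0 CPM in KO IL-4 libraries, against 2.92 and 1.61 CPM in KO basal libraries, from 85 to 200 and from 18 to 27 reads. No KO basal library reached any KO IL-4 library, and the fitted change was 5.40-fold (log2 2.43 ± 0.44, adjusted p = 0.00290). Pmaip1 was the 1 of 10 members called in this comparison, where 7.6% of all genes were called, 4.09% higher and 3.51% lower. In WT, Pmaip1 had 6.09, 7.31 and 5.97 CPM in IL-4 libraries, against 7.27 and 4.62 CPM in basal libraries. There the groups overlapped and the fold change was log2 0.12 ± 0.39 (adjusted p = 0.898).

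The difference between these IL-4 effects was 4.96-fold (log2 2.31 ± 0.57, adjusted p = 0.0399), and it was 1 of 10 members called for the interaction, against 2.81% of all genes, 1.02% higher and 1.78% lower. The call was lost in 8 of 10 fits without 1 library and kept without KO IL-4 replicate 1 (adjusted p = 0.0246) or WT basal replicate 2 (adjusted p = 0.0372). The highest adjusted p among those fits was 0.197, without KO basal replicate 2, with log2 1.93. Library totals in place of TMM also ended the call (log2 2.15, adjusted p = 0.0571). A replicate block, a term for the replicate number in the fit, ended it as well (log2 2.28, adjusted p = 0.0722). The call for IL-4 in KO was kept in 9 of 10 such fits, but not without KO basal replicate 2, the library with 18 reads (log2 2.06, adjusted p = 0.0585). Averaged over genotypes, Pmaip1 was higher after IL-4 by log2 1.28 ± 0.29 (adjusted p = 0.00971), and this call too was lost without that library (adjusted p = 0.0574).

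Between genotypes, the values of Pmaip1 had opposite signs in IL-4 and saline mice, and neither passed the test. After IL-4 all 3 KO libraries were above all 3 WT libraries (12.2 ± 3.71 against 6.46 ± 0.743 CPM, SD, n = 3 each; log2 0.91 ± 0.34, adjusted p = 0.239). Under basal conditions both KO libraries were below both WT libraries (2.26 ± 0.926 against 5.95 ± 1.87 CPM, SD, n = 2 each; log2 -1.40 ± 0.46, adjusted p = 0.105). As NOXA binds mainly MCL1, the ratio of Mcl1 to Pmaip1 transcripts per kb is given beside it, as a description. It was 48.0, 39.5 and 37.9 in KO IL-4, 126, 81.6 and 103 in WT IL-4, 381 and 364 in KO basal, and 94.9 and 141 in WT basal libraries. The KO IL-4 ratios were below all others and the KO basal ratios above all others. Pmaip1 made up 7.49%, 8.38% and 14.1% of the length-scaled BH3-only sum in KO IL-4 libraries, against 5.39%, 6.49% and 5.32% in WT IL-4 libraries. In KO basal libraries it made up 2.73% and 1.53%, against 6.11% and 3.55% in WT basal libraries.

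Other sets of genes followed the same groups. The 14 cycling genes summed to 535, 458 and 928 CPM in KO IL-4, 286, 311 and 286 CPM in WT IL-4, 86.7 and 124 CPM in KO basal, and 141 and 160 CPM in WT basal libraries. KO IL-4 libraries were highest and KO basal libraries lowest, as for Pmaip1. Of the cycling genes, 9 of 14 were called higher for IL-4 in KO (4.09% of all genes). In WT it was 3 of 14 (3.26%), and for the interaction 3 of 14 (1.02%). B cell markers ran the other way in KO: 12 of 13 were called lower for IL-4 in KO (3.51% of all genes). For the interaction 12 of 13 were also called lower (median log2 -3.26), beside 1.78% of all genes. Between basal genotypes 13 of 13 were called higher in KO than in WT libraries (2.61%). Of 14 small macrophage, monocyte and dendritic markers, the interaction called 5 lower and 0 higher. Summed mast cell and basophil markers lay at 186 and 313 CPM in KO basal, against 83.2 and 132 CPM in WT basal libraries, and at 36.1 to 44.7 CPM in KO IL-4 against 38.1 to 50.6 CPM in WT IL-4 libraries. Mesothelial and fibroblast markers summed to 1.12 to 4.14 CPM over all libraries, with Msln, Upk3b, Krt19, Wt1 and Pdpn at 0 counts. The part of dividing cells, of B cells or mast cells, and of small macrophages, monocytes and dendritic cells in the Pmaip1 values was not tested.

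**Figure D3:**
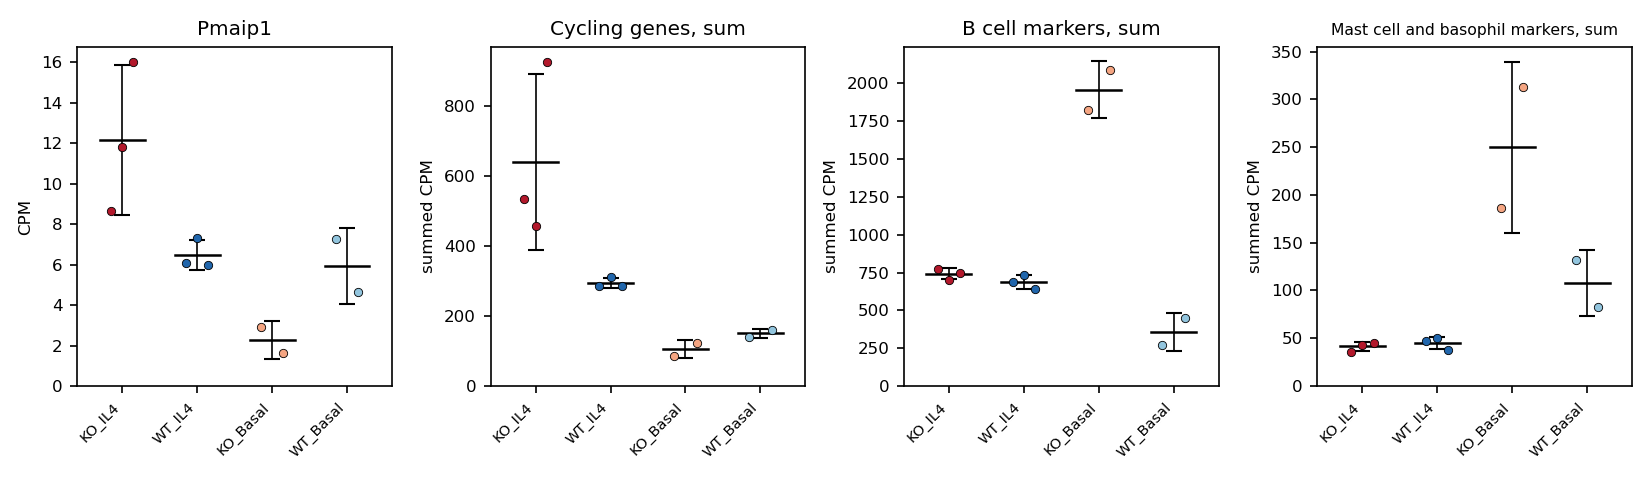
Pmaip1 (CPM) and the summed CPM of 14 cycling genes, 13 B cell markers and 10 mast cell and basophil markers in each library (points), with group mean (line) and SD (bar), on linear axes from 0. Cycling genes reach 458 to 928 CPM in KO IL-4 libraries, where Pmaip1 is also highest, and B cell markers reach 1824 and 2090.2 CPM in KO basal libraries, where Pmaip1 is lowest.

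Bid (ENSMUSG00000004446, chr6:120891930-120916853, minus strand) encodes the BH3-only protein that caspase-8 cleaves, which joins death receptors to mitochondria. It had 8.84, 9.75 and 9.37 CPM in KO IL-4 libraries, against 16.2 and 18.8 CPM in KO basal libraries. WT IL-4 libraries had 15.6, 10.5 and 12.0 CPM, against 20.7 and 13.4 CPM in WT basal libraries. IL-4 libraries were thus below basal ones in KO without overlap, while WT groups overlapped. Averaged over genotypes, Bid fell by 0.67 ± 0.21 on the log2 scale, 1.59-fold (adjusted p = 0.0453), and with Pmaip1 it made 2 of 10 members called, against 12.9% of all genes (7.03% higher and 5.82% lower). Neither genotype passed alone (KO log2 -0.91 ± 0.29, adjusted p = 0.0725, WT log2 -0.42 ± 0.29, adjusted p = 0.443). A replicate block ended the averaged call (log2 -0.65, adjusted p = 0.124). The averaged call was lost in 8 of 10 fits without 1 library, up to an adjusted p of 0.204 without WT basal replicate 1, and kept without WT basal replicate 2 (adjusted p = 0.0358) or WT IL-4 replicate 1 (adjusted p = 0.0402). The 3′ neighbour of Bid, Bcl2l13, shares 628 exon bases on the other strand, and with no strand setting given, reads there cannot be told apart. Bcl2l13 had 230 to 417 reads of its own beside 87 to 219 for Bid. Bcl2l13 itself had log2 -0.35 ± 0.19 for the averaged IL-4 effect (adjusted p = 0.244). For the same averaged effect 8 of 14 small macrophage, monocyte and dendritic markers were called higher, 7 of 8 mast cell and basophil markers lower and 8 of 12 immediate early genes higher, and their part in the values of Bid and Bbc3 was not tested.

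Bbc3 (ENSMUSG00000002083, chr7:16308393-16318205, plus strand), a p53 target whose product is PUMA, did not pass any test. It had 8.12, 16.7 and 13.8 CPM in KO IL-4 libraries, against 21.8 and 18.9 CPM in KO basal libraries. WT IL-4 libraries had 12.0, 6.65 and 8.24 CPM, against 15.2 and 14.6 CPM in WT basal libraries. In both genotypes every IL-4 library was below every basal one (KO log2 -0.66 ± 0.33, adjusted p = 0.255, WT log2 -0.73 ± 0.34, adjusted p = 0.224), and the interaction was log2 0.07 ± 0.48. Averaged over genotypes it was log2 -0.70 ± 0.24 (adjusted p = 0.0670), which became a call without KO IL-4 replicate 2 (adjusted p = 0.0393) or WT IL-4 replicate 1 (adjusted p = 0.0430), and with no filter on low counts (adjusted p = 0.0340).

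Bcl2l11 (ENSMUSG00000027381, chr2:128126038-128162547, plus strand), whose product BIM is the BH3-only protein that ends the life of many blood cells when growth factors are withdrawn, was the best measured of this class per gene, with 680 to 1408 reads. It had 108, 106 and 93.0 CPM in KO IL-4, 79.3, 93.6 and 87.7 CPM in WT IL-4, 92.7 and 79.8 CPM in KO basal, and 64.2 and 58.4 CPM in WT basal libraries. The WT basal libraries were below the other 8. The difference did not pass the test for KO against WT under basal conditions (log2 0.49 ± 0.24, adjusted p = 0.296), for IL-4 in WT (log2 0.50 ± 0.22, adjusted p = 0.196), for IL-4 in KO (log2 0.24 ± 0.22, adjusted p = 0.546) or averaged (log2 0.37 ± 0.15, adjusted p = 0.129).

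Bad (ENSMUSG00000024959, chr19:6941861-6951899, plus strand) had 49.4, 60.4 and 38.8 CPM in KO IL-4, 49.1, 53.3 and 52.9 CPM in WT IL-4, 29.7 and 35.1 CPM in KO basal, and 50.9 and 71.9 CPM in WT basal libraries. The KO basal libraries were below all others. Against WT basal libraries the difference was log2 -0.92 ± 0.28 (adjusted p = 0.0812), a call in DESeq2 (adjusted p = 0.0338) and with no filter on low counts (adjusted p = 0.0399) but not in edgeR with the filter. IL-4 in KO gave log2 0.61 ± 0.26 (adjusted p = 0.173) and the interaction log2 0.86 ± 0.36 (adjusted p = 0.265). The exons of Bad share 524 bases with Gpr137 on the other strand, which had 47 to 148 reads of its own beside 275 to 840 for Bad. The B cell markers, 13 of 13 of them called higher (2.61% of all genes), part the KO basal from the WT basal libraries as well. Their part in the basal genotype values of Bcl2l11, Bad and Bcl2 was not tested.

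Among the pro-survival genes, Mcl1 (ENSMUSG00000038612, chr3:95658788-95663176, plus strand) had 518, 585 and 759 CPM in KO IL-4 libraries, against 1393 and 734 CPM in KO basal libraries. WT IL-4 libraries had 962, 747 and 773 CPM, against 864 and 816 CPM in WT basal libraries. IL-4 in KO gave log2 -0.78 ± 0.25 (adjusted p = 0.0770), but this rests on KO basal replicate 1, the library at 1393 CPM. Without it the value was log2 -0.24 (adjusted p = 0.718), and without replicate 2 of that group it was log2 -1.16 and a call (adjusted p = 0.0258). Library totals (adjusted p = 0.0405) and no filter on low counts (adjusted p = 0.0183) made it a call as well. After IL-4, Mcl1 averaged 621 ± 125 CPM in KO and 827 ± 118 CPM in WT libraries (SD, n = 3 each; log2 -0.41 ± 0.23, adjusted p = 0.432). In WT, IL-4 gave log2 -0.02 ± 0.26 (adjusted p = 0.975), and the interaction was log2 -0.75 ± 0.36 (adjusted p = 0.340). The KO basal libraries also differed in Lyz2, the gene of the Cre driver locus, at 2664 and 9675 CPM.

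Bcl2 (ENSMUSG00000057329, chr1:106538178-106714274, minus strand) had 22.1, 51.3 and 47.3 CPM in KO IL-4, 31.4, 33.2 and 43.8 CPM in WT IL-4, 54.7 and 49.4 CPM in KO basal, and 46.8 and 37.9 CPM in WT basal libraries. Both KO basal libraries were above both WT basal libraries, by log2 0.30 ± 0.34 (adjusted p = 0.727), and after IL-4 the genotypes overlapped (log2 0.16 ± 0.28, adjusted p = 0.850). Bcl2l1 (ENSMUSG00000007659, chr2:152780668-152831728, minus strand), the gene of BCL-XL, was the scarcest member per kb, with 34 to 161 reads. It had 3.45, 10.8 and 3.93 CPM in KO IL-4, 12.4, 10.7 and 7.93 CPM in WT IL-4, 4.54 and 9.93 CPM in KO basal, and 8.22 and 4.54 CPM in WT basal libraries. Its groups overlapped in every comparison of 2 groups, and KO against WT after IL-4 gave log2 -0.77 ± 0.45 (adjusted p = 0.458).

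The effectors had the narrowest ranges of group means, 0.26 for Bak1 and 0.47 for Bax on the log2 scale. Bak1 (ENSMUSG00000057789, chr17:27019810-27029009, minus strand) had 11.1, 17.8 and 16.4 CPM in KO IL-4, 16.2, 15.8 and 13.9 CPM in WT IL-4, 9.95 and 17.6 CPM in KO basal, and 16.5 and 9.85 CPM in WT basal libraries. Bax (ENSMUSG00000003873, chr7:45461697-45466898, minus strand) had 9.04, 10.3 and 5.69 CPM in KO IL-4, 10.2, 8.11 and 8.34 CPM in WT IL-4, 6.81 and 12.7 CPM in KO basal, and 8.40 and 5.31 CPM in WT basal libraries. For both genes the libraries overlapped in each comparison of 2 groups. Bak1 shares 437 exon bases with Ggnbp1 on the other strand (32 to 65 reads of its own), so reads there cannot be told apart. The largest fold change of either was log2 -0.61 ± 0.54, for Bax in the interaction (adjusted p = 0.657), and the standard errors of 0.24 to 0.54 leave room for changes of that size. A p that missed the threshold here does not show that levels were equal.

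**Figure D4:**
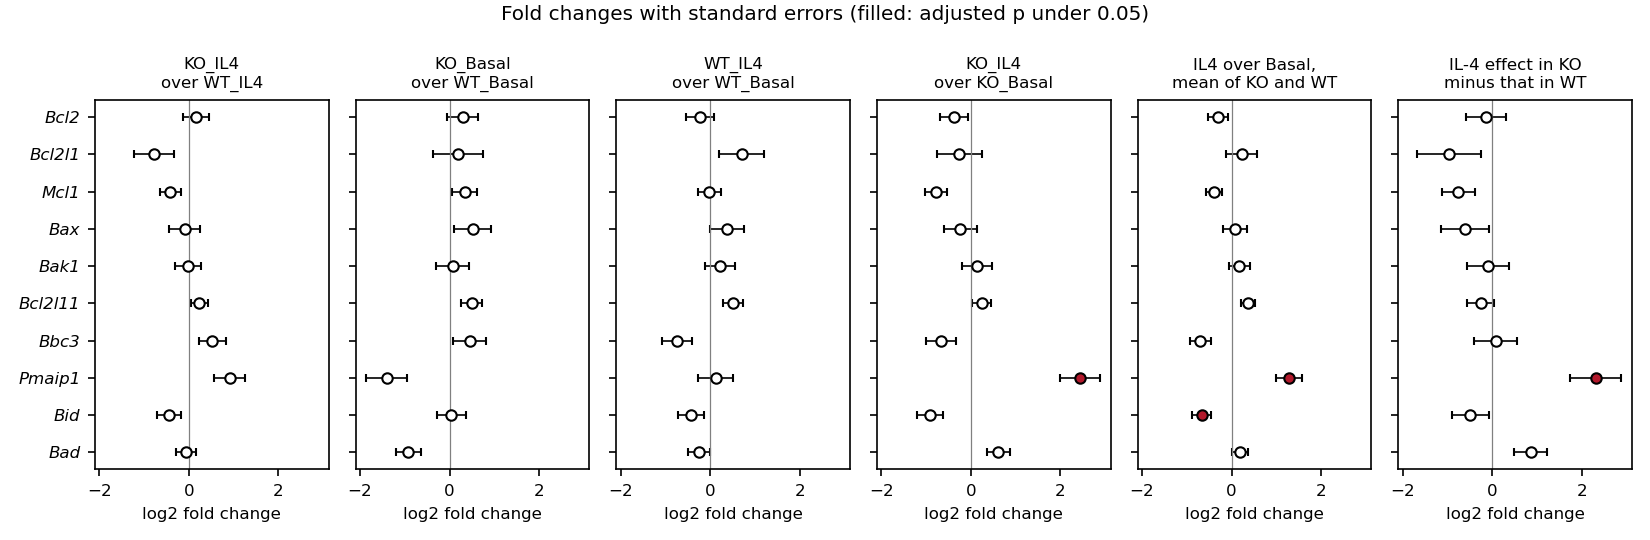
Log2 fold change with its standard error for each of the 10 members in 6 comparisons, filled where the adjusted p was under 0.05. The filled points are Pmaip1 for IL-4 in KO (2.43), averaged (1.28) and the interaction (2.31), and Bid for the averaged IL-4 effect (-0.67).

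Counts over the members are given beside those over all genes. After IL-4, 0 of 10 passed between KO and WT, where 0.827% of all genes did (0.353% higher and 0.474% lower), and 1 had an unadjusted p under 0.05 (14.4% of all genes). Under basal conditions 0 of 10 passed between KO and WT (4.14% of all genes, 2.61% higher and 1.53% lower) and 2 had an unadjusted p under 0.05 (17.7%). DESeq2 called 0 members after IL-4 and 1, Bad, under basal conditions. For IL-4 in WT 0 of 10 passed (6.06% of all genes, 3.26% higher and 2.8% lower), 2 had an unadjusted p under 0.05 (21.3%) and DESeq2 called 0. The median log2 fold change of the members lay between -0.24 and 0.24 in the 6 comparisons, and that of all genes between -0.02 and 0.02. Groups that did not overlap were found for 3 members higher and 2 lower in KO basal than in WT basal libraries, against 23.7% and 24.5% of all genes. For KO against WT after IL-4 there was 1 higher and 1 lower, against 9.57% and 10.7% of all genes. IL-4 in WT gave 1 higher and 1 lower, against 20.8% and 19.5% of all genes, and IL-4 in KO 3 higher and 2 lower, against 18.4% and 21.2%. Unadjusted p under 0.05 were found for 4 members for IL-4 in KO (22.7% of all genes), 5 averaged (27.1%) and 2 for the interaction (15.3%).

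Of 15 other genes of the BCL2 family, 8 passed the filter. In the 6 comparisons edgeR called 0 of these 8 (0.827% to 12.9% of all genes) and DESeq2 0. An unadjusted p under 0.05 was found for 0 to 1 of them (14.4% to 27.1% of all genes). Bnip3l, a mitophagy receptor with a BH3-like stretch, was the most abundant of them in CPM, at 404 to 850 CPM over all libraries. The lowest adjusted p of this list was 0.219, for Bcl2l13, a relative of Bcl2 on mitochondria, with IL-4 in KO (log2 -0.56 ± 0.26). Bok, an effector of the same fold, and Hrk, a BH3-only gene best known from neurons, had 0 counts. Bcl2a1a, Bcl2a1b and Bcl2a1d are near-identical copies, and their values are uncertain.

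Of 20 tested genes of the apoptosome and caspases, downstream of the family, 3 were called higher and 0 lower for IL-4 in KO (7.6% of all genes were called) and also averaged (12.9% of all genes), 1 higher and 0 lower for IL-4 in WT (6.06% of all genes), and 0 in the other 3 comparisons, where DESeq2 also called 0 and 0 to 3 genes had an unadjusted p under 0.05. Of all genes 0.827% to 4.14% were called in those 3. The median of the list was log2 0.14 for IL-4 in KO, beside -0.0017 for all genes. Apaf1, the scaffold of the apoptosome, had 67.8, 82.0 and 44.2 CPM in KO IL-4 libraries, against 24.7 and 29.0 CPM in KO basal libraries. WT IL-4 libraries had 48.2, 59.9 and 50.6 CPM, against 26.2 and 25.1 CPM in WT basal libraries. Every IL-4 library was above every basal one, by log2 1.16 ± 0.20 on average (adjusted p = 0.00137). Birc5 (survivin) belongs to the inhibitor-of-apoptosis family and is also a mitotic gene, and it rose by log2 1.73 ± 0.28 (adjusted p = 9.95e-04), along with the cycling genes, of which 11 of 14 were called higher for the averaged effect; the part of dividing cells in these results was not tested. The averaged calls of Apaf1 and Birc5 were kept in 10 of 10 fits without 1 library. In KO alone, the call of Apaf1 was lost without KO basal replicate 1 (adjusted p = 0.125) or replicate 2 (adjusted p = 0.0684) and that of Birc5 without replicate 2 (adjusted p = 0.0551). The call of Apaf1 in WT (log2 1.05 ± 0.28, adjusted p = 0.0358) was lost in 5 of 10, those without any 1 of the WT libraries, up to an adjusted p of 0.178 without WT basal replicate 2.

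At the outer membrane, 10 genes were tested, and averaged over genotypes 1 was called higher and 3 lower after IL-4, beside 7.03% and 5.82% of all genes. Vdac1, a channel protein of that membrane, rose by log2 1.14 (adjusted p = 0.00197), a call kept in 10 of 10 fits without 1 library. Bag1, a co-chaperone named for binding BCL2, had 83.8 and 57.6 CPM in KO basal libraries, against 155 and 293 CPM in WT basal libraries, and 59.5 to 76.8 CPM in KO IL-4 against 69.7 to 82.2 CPM in WT IL-4 libraries. The WT basal libraries were above the other 8. Bag1 was lower in KO than in WT under basal conditions (log2 -1.67 ± 0.31, adjusted p = 0.00564) and lower after IL-4 in WT (log2 -1.54 ± 0.27, adjusted p = 0.00372). Both calls were lost without WT basal replicate 2 (adjusted p = 0.0765 between genotypes and 0.0789 for IL-4), and the first also without KO basal replicate 2 (adjusted p = 0.0866). Tomm20 and Bcap31 were the other genes called lower for the averaged effect, with calls lost in 4 of 10 such fits (up to adjusted p = 0.142, without WT basal replicate 2) and 5 of 10 (up to 0.143, without KO basal replicate 2). The interaction called 1 of 10, Bag1 (log2 1.53 ± 0.39, adjusted p = 0.0490), lost in 8 of 10 (up to 0.272, without WT basal replicate 2), with DESeq2 size factors (0.0507) and with library totals (0.0668). For the interaction 2.81% of all genes were called. KO against WT after IL-4 called 0 of 10 in edgeR (0.827% of all genes) and in DESeq2, with 0 at an unadjusted p under 0.05 (14.4%). KO against WT under basal conditions gave 0 higher and 1 lower (2.61% and 1.53% of all genes). IL-4 in WT gave 0 higher and 1 lower (3.26% and 2.8%), and IL-4 in KO 1 higher and 0 lower (4.09% and 3.51%). That 1 was Vdac1 (log2 1.41, adjusted p = 0.00771), lost without KO basal replicate 1 (adjusted p = 0.0895) or replicate 2 (adjusted p = 0.0595).

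The next lists hold genes that act on the BCL2 proteins or on BH3-only promoters. Of 14 genes for turnover and kinase control, 1 was called higher for IL-4 in KO (Fbxw7, part of a ubiquitin ligase for MCL1, log2 0.86 ± 0.24, adjusted p = 0.0389) and 1 for the averaged effect (Gsk3b, a kinase that marks MCL1 for decay, log2 0.52 ± 0.16, adjusted p = 0.0487), with 0 lower in any of the 6 comparisons; 7.6% and 12.9% of all genes were called for those effects. Fits without 1 library lost the call of Fbxw7 in 7 of 10 (up to adjusted p = 0.343, without KO basal replicate 2) and that of Gsk3b in 8 of 10 (up to 0.165, without WT basal replicate 2). Library totals ended both calls as well (adjusted p = 0.058 for Fbxw7 and 0.0634 for Gsk3b), and a fit of the compared groups alone that of Fbxw7 (0.0802). In the 4 comparisons with 0 calls (0.827% to 6.06% of all genes), 1 to 2 of these genes had an unadjusted p under 0.05 and DESeq2 called 0 to 2. Of 15 transcription factors tested, Ddit3 (CHOP, a stress factor) was called lower between KO and WT under basal conditions (log2 -1.12 ± 0.30, adjusted p = 0.0463) and for IL-4 in WT (log2 -0.996 ± 0.26, adjusted p = 0.0357), calls lost in 7 of 10 (up to 0.301, without KO basal replicate 2) and 5 of 10 (up to 0.196, without WT basal replicate 1). Library totals ended both (0.0885 and 0.0537), and a fit of the compared groups alone ended the first (0.0805). Ddit3 had 17.5 and 12.9 CPM in KO basal against 36.2 and 29.7 CPM in WT basal libraries. Of all genes 4.14% were called between basal genotypes (1.53% lower) and 6.06% for IL-4 in WT (2.8% lower). Stat6, the factor that carries the IL-4 signal, was called higher for IL-4 in KO (log2 0.84 ± 0.24, adjusted p = 0.0419, lost in 6 of 10, up to 0.3003 without KO basal replicate 2, by library totals at 0.0704 and in a fit of the compared groups alone at 0.0915) and averaged (log2 0.67 ± 0.17, adjusted p = 0.0161), the second lost without KO basal replicate 2 (adjusted p = 0.0844) or WT basal replicate 2 (adjusted p = 0.0534). Of 13 p53 targets outside the family, 1 passed, Trp53inp1, for the averaged IL-4 effect (log2 0.99 ± 0.29, adjusted p = 0.0378, lost in 6 of 10, up to 0.155 without KO basal replicate 2). In the other 5 comparisons (0.827% to 7.6% of all genes called) 0 to 2 of them had an unadjusted p under 0.05, and DESeq2 called 0. For the averaged effect DESeq2 called 3. For IL-4 in KO 11 of the 13 had a positive log2 (median 0.38, beside -0.0017 for all genes). For KO over WT after IL-4 it was also 11 (median 0.19, beside 0.018). For IL-4 in WT it was 7 (median 0.073), and between basal genotypes 5 (median -0.018). The transcription factors had 0 calls after IL-4 between genotypes and for the interaction (0.827% and 2.81% of all genes). There 0 to 1 had an unadjusted p under 0.05 and DESeq2 called 0 to 1. Of 11 tested death receptor genes, 0 passed in any of the 6 comparisons (0.827% to 12.9% of all genes). An unadjusted p under 0.05 was found for 0 to 1 of them (14.4% to 27.1% of all genes), and DESeq2 called 0 to 1. The lowest adjusted p was 0.0762, for Traf2 in the averaged effect (log2 -0.71 ± 0.25).

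Promoters were searched for 2 motifs on both strands, the FOXO-type TGTTTAC and the STAT6-type TTC and GAA parted by any 4 bases, in the 250 bases before and 50 after each RefSeq start (GRCm38.p6), which were given for 9 of the 10 members. The FOXO-type motif was found for 2 of 9, Bcl2l11 and Bbc3, beside 4.05% of 27025 genes and 3.65% of 32851 windows. Bcl2l11 had 2 windows and Bbc3 had 3, and a gene with more windows is more likely to hold a match. FOXO factors are known to act on both genes. The STAT6-type motif was found for 1 of 9, Bcl2l1, beside 8.01% of genes and 6.95% of windows. The 3 matches are shown with their surroundings and the motif in capitals, since FOXO and STAT6 factors carry growth-factor and IL-4 signals to genes; a match is a description of these letters and not a site.
Bcl2l11: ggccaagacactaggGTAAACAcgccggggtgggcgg
Bbc3: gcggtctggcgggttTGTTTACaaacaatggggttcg
Bcl2l1: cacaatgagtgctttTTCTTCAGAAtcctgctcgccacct
They lie at chr2:128125796-128125832 (plus strand, first base of the motif at -227 from the start, in the reverse sense), chr7:16310079-16310115 (plus strand, first base at -167) and chr2:152828469-152828508 (minus strand, first base at -4). Bbc3 and Bcl2l1 had 3 windows each, and the matches of both lie at starts inside the gene bounds given above. That of Bcl2l1 is downstream of its BH3 stretch.

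For the 3 members with the widest range of group means, the genes with the most similar profile over the 10 libraries were found by the root mean square difference of centred log2 CPM. Closest to Pmaip1 were Fam13a (0.295), Psma8 (0.341) and Nostrin (0.375), where the median over all genes was 0.985. Nostrin averaged 15.6 CPM in KO IL-4, 10.5 CPM in WT IL-4, 5.72 CPM in KO basal and 9.72 CPM in WT basal libraries, the same order of extremes as Pmaip1. Closest to Bbc3 were Scly (0.253), Pigp (0.263) and Rab40c (0.263), with a median of 0.691, and closest to Bcl2l1 were Rgp1 (0.277), Pwp2 (0.318) and Thop1 (0.323), with a median of 0.786. These genes were picked for their likeness, and nothing follows from it about shared control.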

How the data were processed

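Polyadenylated RNA of 10 libraries was measured. The authors deposited read counts per gene, aligned with STAR to mm10 and counted with HTSeq, per the submitters' processing notes; versions and strand setting are not given in the sources used here. Counts were used as deposited and matched by Ensembl identifier to GENCODE M21. Genes were filtered with filterByExpr (minimum count 10, minimum total 15) and scaled by TMM in edgeR 4.0.16 (R 4.3.3). A robust quasi-likelihood fit of 4 group means over all 10 libraries left 6 residual degrees of freedom (common biological coefficient of variation 28.4%). The test was two-sided, and p-values were adjusted over 11614 genes by Benjamini and Hochberg's method, with 0.05 as the threshold. On simulated counts it missed most 2-fold changes. It called 3% of them in the interaction, 9% between basal genotypes, 12% for IL-4 in KO and 15% in WT. Between genotypes after IL-4 it called 29%, and for the averaged effect 53%. Of 4-fold changes it called 33% in the interaction and 63% to 86% in the others. SE is the fold change divided by the square root of F.

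Libraries held 8762403 to 15024073 reads, which limits genes with few reads such as Pmaip1. Groups were taken from the labels. Alternatives were DESeq2 1.42.0, DESeq2 size factors, library totals, no filter, only the compared groups, a replicate block and each library left out, where a group left with 1 library was assumed to vary like the others. Lengths are exon unions. Sequences were read with Python 3.11.15. All members were named, and up to 4 called genes (2 with the smallest p where none was called) per pathway list. Members and lists were chosen with earlier results of these data known. Pmaip1 sequence is not used here. The targeted gene and 1 called pathway gene are not reported here.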

Additional observations from a re-analysis of the deposited data

Results flagged for a closer look

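The response of Pmaip1 to IL-4 differed between genotypes by the test of the difference itself, log2 2.31 ± 0.57 (edgeR quasi-likelihood adjusted p = 0.0399). That call was lost in 8 of 10 fits without 1 library (adjusted p up to 0.197) and with library totals (0.0571). A replicate block in the edgeR fit ended that call as well (adjusted p = 0.0722). The IL-4 effect was log2 2.43 ± 0.44 in KO and log2 0.12 ± 0.39 in WT. All 3 KO IL-4 libraries (8.63 to 16.0 CPM) were above both KO basal libraries (1.61 and 2.92 CPM), while WT IL-4 libraries (5.97 to 7.31 CPM) overlapped with the WT basal libraries (4.62 and 7.27 CPM). Cycling genes and B cell markers moved with the same groups, and their part in the difference was not tested.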

How the results depend on the processing

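Over the log2 fold changes of the 10 members, 329 values under other settings kept their direction and side of the threshold, 5 became calls, 3 lost the call and 3 turned. Without 1 library, 539 values kept both, 3 became calls, 18 lost the call and 40 turned. Directions turned for Bid between basal genotypes with no filter (log2 -0.0088), for Mcl1 with IL-4 in WT by library totals (log2 0.052) and for Bbc3 in the interaction by library totals (log2 -0.10); none of these was called. Members called changed to 1 between basal genotypes (DESeq2 and no filter, in place of 0), 2 for IL-4 in KO (library totals and no filter, in place of 1) and 0 for the interaction (library totals, in place of 1). Without 1 library, members called ranged from 0 to 3 for the averaged IL-4 effect and from 0 to 1 for the interaction; for IL-4 in KO the count stayed at 1, but without KO basal replicate 2 it was Mcl1 and not Pmaip1.

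All genes called after IL-4 between genotypes were 96, with 385 in DESeq2, 505 with no filter and 21 to 129 without 1 library. The counts were 481 (848, 1034 and 208 to 550) between basal genotypes, 704 (1126, 1209 and 302 to 764) for IL-4 in WT and 326 (594, 819 and 182 to 397) for the interaction. For IL-4 in KO they were 883, with 1423 with no filter and 327 to 931 without 1 library, and for the averaged effect 1493, with 841 to 1560.

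The labels do not say whether replicate numbers pair the samples. Deviations from the group mean correlated at -0.11 to 0.062 for libraries with the same number and at -0.138 to 0.162 for those with different numbers. In groups of 2 the deviations mirror each other, so few of these values are independent and they cannot exclude a shared batch. With the replicate block, 554 genes were called for IL-4 in KO and 836 for the averaged effect, and members called were 1 for the averaged effect (Bid lost, adjusted p = 0.124) and 0 for the interaction (Pmaip1 log2 2.28, adjusted p = 0.0722). It also ended pathway calls: Fbxw7 (0.107) and Stat6 (0.112) for IL-4 in KO, Ddit3 between basal genotypes (0.056) and for IL-4 in WT (0.064), Stat6 (0.0664), Gsk3b (0.0557), Trp53inp1 (0.0554), Tomm20 (0.0964) and Bcap31 (0.0807) averaged, and Bag1 in the interaction (0.0846).

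Without 1 library, uncalled values crossed 0 in these ranges of log2 fold change. Between genotypes after IL-4 they were -0.053 to 0.44 for Bcl2, -0.28 to 0.12 for Bax, -0.15 to 0.15 for Bak1 and -0.23 to 0.084 for Bad. Between basal genotypes they were -0.49 to 0.69 for Bcl2l1, -0.19 to 0.73 for Mcl1, -0.0091 to 0.89 for Bax, -0.41 to 0.50 for Bak1 and -0.24 to 0.39 for Bid. For IL-4 in WT they were -0.14 to 0.047 for Mcl1, -0.11 to 0.65 for Bak1, -0.17 to 0.49 for Pmaip1 and -0.46 to 0.022 for Bad. For IL-4 in KO they were -0.97 to 0.42 for Bcl2l1, -0.61 to 0.29 for Bax and -0.22 to 0.61 for Bak1. For the averaged effect they were -0.14 to 0.56 for Bcl2l1 and -0.11 to 0.34 for Bax, and for the interaction -0.35 to 0.14 for Bcl2, -0.53 to 0.39 for Bak1 and -0.15 to 0.34 for Bbc3. The cause was not tested. With the longest transcript as length, Bad was at 32.1, Bcl2l11 at 17.1, Bax at 7.72, Bcl2 at 5.81, Bid at 5.60 and Bcl2l1 at 2.98 CPM per kb.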
